A study of Mus musculus with 12 samples.

Results

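Livers of wild-type mice fed a diet high in fat, fructose and cholesterol (FFC) were set against livers of wild-type mice fed chow. The comparison used 6 of the 12 RNA libraries of the study, WT FFC replicates 2, 3 and 4 and WT chow replicates 2, 3 and 4, and every gene with enough counts to be tested, which was 16283 of the 43346 genes in the count table. WT mice carried loxP-flanked S1pr1, the gene of a sphingosine 1-phosphate receptor, and no Cre. They were littermates of the knockout mice (KO, S1pr1loxp/loxp;Lyz2-Cre/0), in which the promoter of the myeloid gene Lyz2 drives Cre, so that the loxP alleles were common to all groups. All mice were 12 weeks old when the diets began and received them for 24 weeks, FFC being the AIN-76A Western Diet. The 6 KO libraries (KO FFC replicates 1, 4 and 7, KO chow replicates 1, 2 and 3) entered the shared estimate of the spread and the last comparison. The labels give no sex and do not say that each library is a mouse of its own, so the p-values measure only the spread between these libraries.

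The liver makes most of the proteins of blood plasma, disposes of nitrogen as urea and converts drugs, steroids and other foreign or spent molecules into forms that can be excreted. In mice many of these hepatocyte genes differ between the sexes, because the pituitary releases growth hormone in pulses in males and more evenly in females, and the transcription factor STAT5B carries that pattern to the genome. Long feeding with fat, sugar and cholesterol is used in mice to bring on fatty liver with inflammation and scarring, and the lipid and macrophage genes of that disease are the best known. The account below therefore follows the genes outside those lists: sex-biased hepatocyte genes, detoxifying enzyme families, nitrogen and one-carbon enzymes, plasma proteins, ribosomal and respiratory-chain genes, matrix, proteases, receptors, cytoskeleton and cell-cycle inhibitors.

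Total counts were 28415409 to 31154930 in the WT FFC libraries and 21340263 to 22531709 in the WT chow libraries. Levels are given in CPM, that is, relative to each library's total after TMM scaling, and a change is the fitted log2 ratio of WT FFC over WT chow with its standard error (SE). A gene was called when its edgeR quasi-likelihood p, with Benjamini-Hochberg adjustment across all 16283 genes, was under 0.05. The chow libraries varied more among themselves (biological coefficient of variation 0.137 in WT FFC and 0.285 in WT chow). S1pr1, intact in both groups, had 33.7, 39.3 and 29.1 CPM in WT FFC livers, against 29.8, 27.3 and 44.4 CPM in WT chow livers (log2 change 0.01 ± 0.20 SE, edgeR adjusted p = 0.982). The tissue was liver by its markers: albumin took 6.16% to 8.06% of all counts in WT FFC libraries and 10.1% to 14.3% in WT chow libraries, and 5 of 9 exocrine pancreas markers (among them Cpb1, Prss2 and Pnlip) and the fat-tissue genes Lep and Plin1 had 0 counts. The pancreas markers summed to 8.68 to 11.9 CPM in WT FFC livers and 29.1 to 41.0 CPM in WT chow livers, mostly from Cela1. Of the other 5 fat-tissue markers, Cidea had 3798 counts over the FFC libraries and 10 over the chow libraries, Cfd 347 and 3, and Car3, which took most of the list's counts, 201153 and 286338, while Adipoq and Retn had at most 4. The part of such tissue in the results was not tested. 

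FFC feeding changed a large part of the liver transcriptome. Of the 16283 genes 2734 were called, a share of 16.8%, with 1427 higher (8.76%) and 1307 lower (8.03%) on FFC, and 4959 had an unadjusted p under 0.05. The genes that rose did so by larger factors and from lower levels than the genes that fell: 184 called genes rose by a log2 change of at least 3, and 39 fell by as much. Among the 3226 genes with the highest levels 5.49% were called higher and 22.5% lower, whereas in the second-lowest of 5 equal bins of level 13.4% were called higher and 2.91% lower. Without WT FFC replicate 2, 3 or 4 the calls were 1318, 1557 and 1502, and without WT chow replicate 2, 3 or 4 they were 2490, 1691 and 1763.

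Among genes outside the well-known lipid and macrophage lists, the 15 with the largest rise at a substantial level belonged to several classes. Gpr98, a very large adhesion-type receptor, had 14.6, 34.6 and 22.8 CPM in WT FFC livers, against 2.69, 3.22 and 3.21 CPM in WT chow livers (log2 change 2.98 ± 0.33 SE, edgeR adjusted p = 2.17e-05). Wfdc2, a secreted protease-inhibitor-like protein, had 20.1, 16.2 and 22.2 CPM in WT FFC livers, against 1.54, 2.06 and 4.51 CPM in WT chow livers (log2 change 2.85 ± 0.32 SE, edgeR adjusted p = 2.20e-05). In neither gene did a library of one diet reach the levels of the other diet. The choice of named genes required this, so that here and below it describes values and supports no call, and it held for 45.1% of all tested genes, 25% with FFC above chow and 20.1% with FFC below. Osbpl3, an oxysterol-binding protein (log2 change 2.72, adjusted p = 7.61e-04), Unc5b, a netrin receptor (2.64, adjusted p = 5.78e-04), the actin-associated Synpo (2.63, adjusted p = 1.69e-04) and Enc1 (2.63, adjusted p = 3.82e-05), and Adcy7, an adenylyl cyclase (2.39, adjusted p = 0.00248), were others of these genes. 

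The 15 genes with the largest fall included many enzymes and plasma proteins of the hepatocyte. Hsd3b5, a steroid-metabolising enzyme of the male mouse liver (chr3:98618636-98630309, mm10), had 0.281, 4.66 and 0.147 CPM in WT FFC livers, against 85.2, 228 and 275 CPM in WT chow livers (log2 change -6.83 ± 1.79 SE, edgeR adjusted p = 0.0357). Selenbp2, a selenium-binding protein (chr3:94693556-94704413), had 36.3, 25.6 and 25.1 CPM in WT FFC livers, against 527, 872 and 477 CPM in WT chow livers (log2 change -4.43 ± 0.74 SE, edgeR adjusted p = 0.00400). Etnppl, an enzyme that breaks down phosphoethanolamine, had 34.3, 39.8 and 48.6 CPM in WT FFC livers, against 253, 196 and 245 CPM in WT chow livers (log2 change -2.50 ± 0.31 SE, edgeR adjusted p = 1.00e-04). All FFC libraries were below all chow libraries in these genes, with the lowest and highest FFC values of Hsd3b5 far apart. Aldoc, the brain-type aldolase (-2.54, adjusted p = 2.38e-06), Cyp1a2, which oxidises caffeine and aromatic amines (-2.47, adjusted p = 8.74e-05), and Acpp, an acid phosphatase (-2.44, adjusted p = 4.23e-04), were among the rest. Hsd3b5 was not called when WT FFC replicate 2 or 4 or WT chow replicate 3 or 4 was left out (highest adjusted p = 0.125).

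**Figure D1:**
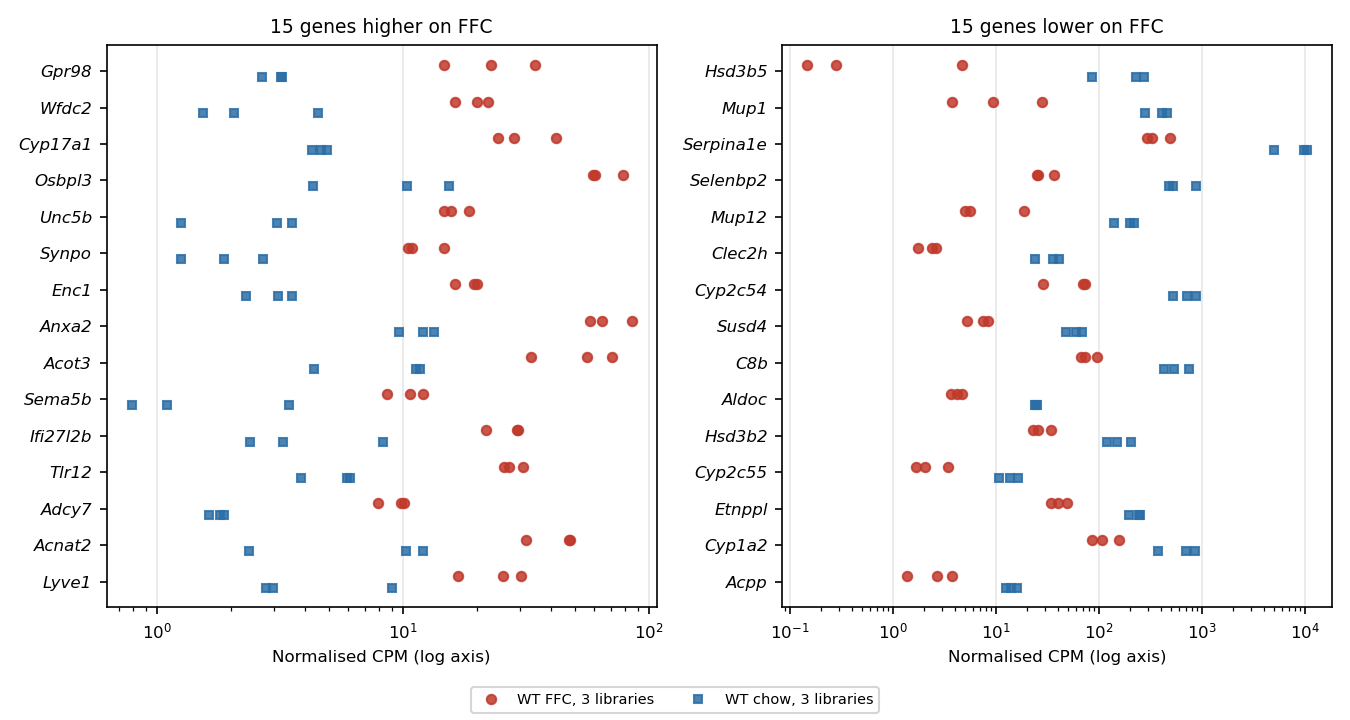
Normalised CPM (log axis) of the 15 genes with the largest rise (left) and the 15 with the largest fall (right) outside the lipid and macrophage lists; red circles are the 3 WT FFC libraries and blue squares the 3 WT chow libraries. In each gene the circles and squares do not overlap, as the choice of genes required, and Hsd3b5 spans 0.147 to 4.66 CPM on FFC.

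Counted by absolute level, the largest losses included abundant plasma proteins, and the largest gains included the enzymes Scd1 and Fmo5. Albumin averaged 59680.5 ± 8509 CPM in WT FFC livers and 129517 ± 35045 CPM in WT chow livers (SD, n = 3 each). Serpina3k, a protease inhibitor secreted in large amounts, averaged 4249 ± 197 CPM in WT FFC livers and 12592 ± 2401 CPM in WT chow livers (SD, n = 3 each), and Ahsg, the plasma carrier fetuin-A, averaged 3611 ± 732 CPM in WT FFC livers and 8211 ± 777 CPM in WT chow livers (SD, n = 3 each). On the rising side Scd1, the main stearoyl-CoA desaturase, averaged 35707 ± 3846 CPM in WT FFC livers and 3668 ± 1724 CPM in WT chow livers (SD, n = 3 each). Fmo5, a flavin monooxygenase, averaged 1589.5 ± 320.1 CPM in WT FFC livers and 907 ± 323 CPM in WT chow livers (SD, n = 3 each), and it was not called with median-ratio size factors (adjusted p = 0.0517), nor when WT FFC replicate 2, 3 or 4 or WT chow replicate 3 or 4 was left out (highest adjusted p = 0.194). CPM is a share of a total, so these values do not show whether the amount of RNA per liver changed. 

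Genes that male mice express more strongly than females in the liver fell on FFC. Of 20 male-biased liver genes 16 fell and none rose, with a median log2 change of -1.62, beside 0.04 over all tested genes. Susd4, a complement regulator, had 5.23, 8.33 and 7.54 CPM in WT FFC livers, against 68.0, 60.5 and 48.2 CPM in WT chow livers (log2 change -3.07 ± 0.24 SE, edgeR adjusted p = 1.56e-06). Serpina1e, an alpha-1-antitrypsin paralogue made mainly in males, had 294, 328 and 491 CPM in WT FFC livers, against 5068, 10552 and 9911 CPM in WT chow livers (log2 change -4.52 ± 0.56 SE, edgeR adjusted p = 4.21e-04). Cyp7b1, the oxysterol 7-alpha-hydroxylase, had 46.0, 57.3 and 34.3 CPM in WT FFC livers, against 251, 463 and 347 CPM in WT chow livers (log2 change -2.95 ± 0.31 SE, edgeR adjusted p = 1.90e-05). FFC and chow libraries did not overlap in any of the 3 genes. 

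Hsd3b5 and Selenbp2, described above, belong to these genes as well. The organic anion transporter Slco1a1 (-2.66, adjusted p = 0.0258), the fatty acid hydroxylases Cyp4a12a (-1.45, adjusted p = 0.00609) and Cyp4a12b (-1.98, adjusted p = 0.00405), Gstp1 (-1.61, adjusted p = 0.00451) and Cyp2d9 (-1.31, adjusted p = 0.00370) were called. Ugt2b38 (-2.07, adjusted p = 0.0527), Elovl3 (-0.75, adjusted p = 0.334), Mup20 (-0.69, adjusted p = 0.126) and Cyp2u1 (-0.22, adjusted p = 0.744) were not called. With each library left out in turn the count lower was 14, 16 and 13 without WT FFC replicate 2, 3 or 4, and 17, 14 and 15 without WT chow replicate 2, 3 or 4. In KO livers 12 of the same genes fell and none rose, with a median of -1.08. Slco1a1 was not called when WT FFC replicate 4 or WT chow replicate 3 was left out (highest adjusted p = 0.0955) and Ugt2b38 was called when WT chow replicate 2 was left out (adjusted p = 0.0457). Elovl3 was called when WT chow replicate 3 was left out (adjusted p = 0.0480).

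**Figure D2:**
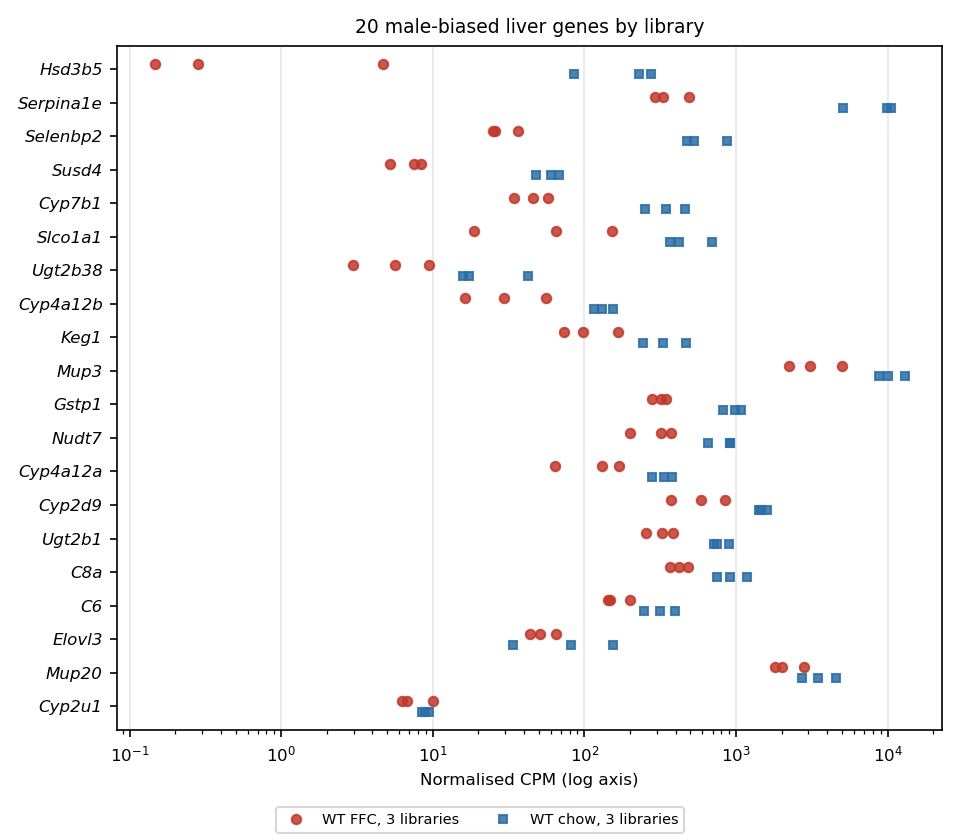
Normalised CPM (log axis) of the 20 male-biased liver genes, ordered by log2 change; red circles are the 3 WT FFC libraries and blue squares the 3 WT chow libraries. 16 genes were called lower and the remaining 4, Ugt2b38, Elovl3, Mup20 and Cyp2u1, were not.

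Female-biased genes did not move as a mirror image. Of 19 tested, 4 rose (21.1%) and 2 fell (10.5%), beside 8.76% and 8.03% over all tested genes. Their median log2 change was 0.42, with 12 changes above 0 and 7 below. In KO livers 2 rose and 6 fell, with a median of 0.29. Cyp2b13, a P450 enzyme typical of female mouse liver (chr7:26061495-26096196), had 6.97, 7.85 and 7.81 CPM in WT FFC livers, against 0.528, 0.0527 and 0 CPM in WT chow livers (log2 change 5.21 ± 0.74 SE, edgeR adjusted p = 2.53e-04). Cyp17a1, the steroid 17-alpha-hydroxylase (chr19:46667165-46672974), had 41.8, 24.4 and 28.4 CPM in WT FFC livers, against 4.66, 4.27 and 4.91 CPM in WT chow livers (log2 change 2.77 ± 0.32 SE, edgeR adjusted p = 3.11e-05). All FFC libraries exceeded all chow libraries in both. Hao2, a peroxisomal hydroxyacid oxidase (2.96, adjusted p = 0.0310), and Acot3 (2.55, adjusted p = 0.0345), whose exons overlap an antisense transcript, also rose, while Cyp3a44 (-1.71, adjusted p = 0.0130) and Cyp2c40 (-1.41, adjusted p = 0.00845) fell. Without WT FFC replicate 2, WT chow replicate 2 or WT chow replicate 3 only 2 female-biased genes were called higher. Hao2 was not called when WT FFC replicate 2 or 4 or WT chow replicate 2 or 3 was left out (highest adjusted p = 0.138) and Acot3 was not called when WT FFC replicate 2 or 3 or WT chow replicate 2, 3 or 4 was left out (highest adjusted p = 0.0938). Cyp3a44 was not called when WT FFC replicate 2 or 3 was left out (highest adjusted p = 0.0615) and Cyp2c40 was not called when WT chow replicate 3 was left out (adjusted p = 0.0584).

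Genes of the growth hormone axis changed in part. Igf1, the growth factor that growth hormone induces in liver, had 408, 353 and 361 CPM in WT FFC livers, against 611, 822 and 678 CPM in WT chow livers (log2 change -0.91 ± 0.19 SE, edgeR adjusted p = 0.00337). Igfals, which holds the growth factor in the circulation, fell (-1.06, adjusted p = 0.00863), and Igfbp3, its main binding partner, which liver makes largely outside hepatocytes, rose (1.37, adjusted p = 0.0111). The receptor gene Ghr had a log2 change of -0.51, adjusted p = 0.0544, and the feedback genes Cish (-2.36, adjusted p = 0.131), whose exons overlap another gene, and Socs2 (-0.93, adjusted p = 0.422) were not called. Cish was called lower with DESeq2 (adjusted p = 0.0452), limma-voom (0.0447) and the 6 wild-type libraries alone (0.00187), and Ghr with the same settings (0.0139, 0.0373 and 0.0209), with median-ratio size factors (0.0454) and with the GC and length offsets (0.0233). Of the 12 tested genes of this axis 2 rose and 2 fell, against 4 lower with DESeq2 or limma-voom and 5 with the 6 wild-type libraries alone. Bcl6, a repressor that opposes STAT5, had 56.1, 58.3 and 51.7 CPM in WT FFC livers, against 4.46, 10.1 and 19.4 CPM in WT chow livers (log2 change 2.29 ± 0.84 SE, edgeR adjusted p = 0.102), and was not called. Its FFC libraries were all above its chow libraries, as in 25% of all tested genes. Stat5a rose (1.63, adjusted p = 0.00215), but its exons overlap those of the more abundant Stat3 on the other strand. Igfals was not called when WT FFC replicate 3 was left out (adjusted p = 0.0513) and Igfbp3 was not called when WT chow replicate 2 or 4 was left out (highest adjusted p = 0.0581).

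Major urinary proteins, pheromone carriers that the male mouse liver secretes in bulk, totalled 4383, 9572 and 5580.0 CPM in WT FFC livers, against 17338, 22967 and 17580.0 CPM in WT chow livers. The sums of the 2 diets did not overlap. Only 4 of 21 members were called lower (Mup1, Mup3, Mup12 and Mup21) and none higher, with a median of -1.79. Mup1 was not called when WT FFC replicate 2 or 4 was left out (highest adjusted p = 0.0705), nor Mup21 with the GC and length offsets (adjusted p = 0.0568). Mup7 had 9.19, 339 and 34.4 CPM in WT FFC livers, against 2585, 2115 and 1811 CPM in WT chow livers (log2 change -4.09 ± 1.48 SE, edgeR adjusted p = 0.101). These genes are near-identical copies, so reads can be shared between them and the values of single members are uncertain. With DESeq2 9 members were lower, with limma-voom 12, with no filter on low counts 17, and without WT FFC replicate 3, the FFC library with the most Mup7, 8. Mup7 was called when WT FFC replicate 3 was left out (adjusted p = 0.0353).

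The enzyme families of detoxification fell together in number but not in every member. Of 41 cytochrome P450 genes of family 2, which oxidise drugs, steroids and fatty acids, 22 fell and 2 rose, with a median log2 change of -1.02. Their summed level was 11424, 14240.0 and 14328 CPM in WT FFC livers, against 29151, 31140.0 and 23400.0 CPM in WT chow livers. The FFC sums were all below the chow sums. In KO livers 22 fell and 2 rose. 

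The 2 members that rose were Cyp2b13 and Cyp2d37-ps (0.66, adjusted p = 0.0357). Promoters from RefSeq (GRCm38.p6) are shown for Cyp2b13 and for 3 members that fell, which were picked because they hold CAAAGTCCA, each window running from 250 bases before to 50 bases after the annotated start, on the gene's own strand. Capitals mark CAAAGTCCA, the form of the direct-repeat element that the hepatocyte factor HNF4A binds, and TATAAA, the letters of the TATA box, on either strand. Cyp2d37-ps was not called when WT FFC replicate 2, 3 or 4 or WT chow replicate 2 or 3 was left out (highest adjusted p = 0.162).
Cyp2c67 (chr19:39648993-39649292, minus strand): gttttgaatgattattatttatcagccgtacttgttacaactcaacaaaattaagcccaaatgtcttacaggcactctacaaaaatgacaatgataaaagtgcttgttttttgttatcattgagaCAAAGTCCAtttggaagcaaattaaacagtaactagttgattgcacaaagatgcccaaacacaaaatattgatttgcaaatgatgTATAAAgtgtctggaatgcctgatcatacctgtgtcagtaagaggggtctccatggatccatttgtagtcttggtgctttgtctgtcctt 
Cyp2c40 (chr19:39812765-39813064, minus strand): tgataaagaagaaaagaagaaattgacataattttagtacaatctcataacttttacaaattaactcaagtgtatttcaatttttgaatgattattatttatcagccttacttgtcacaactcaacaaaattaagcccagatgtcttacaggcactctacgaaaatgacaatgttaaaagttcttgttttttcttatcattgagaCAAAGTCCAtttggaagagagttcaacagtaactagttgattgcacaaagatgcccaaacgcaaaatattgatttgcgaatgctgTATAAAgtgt 
Cyp2c70 (chr19:40187237-40187536, minus strand): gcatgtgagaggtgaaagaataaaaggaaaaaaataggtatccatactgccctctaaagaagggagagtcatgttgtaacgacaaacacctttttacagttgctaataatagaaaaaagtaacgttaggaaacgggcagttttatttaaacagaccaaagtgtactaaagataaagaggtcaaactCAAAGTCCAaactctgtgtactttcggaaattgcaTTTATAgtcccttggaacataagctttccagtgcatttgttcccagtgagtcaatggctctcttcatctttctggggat 
Cyp2b13 (chr7:26061245-26061544, plus strand): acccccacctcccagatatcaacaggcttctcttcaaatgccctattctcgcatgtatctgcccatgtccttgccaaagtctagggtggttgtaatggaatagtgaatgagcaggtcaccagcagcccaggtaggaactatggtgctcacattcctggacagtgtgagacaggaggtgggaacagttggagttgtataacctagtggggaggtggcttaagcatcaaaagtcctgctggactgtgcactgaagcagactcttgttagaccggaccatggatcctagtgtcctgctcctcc 

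CAAAGTCCA began 125 bases before the start in Cyp2c67, 64 bases before it in Cyp2c70 and 45 bases before it in Cyp2c40, and Cyp2b13 held neither motif. TATAAA began 40 bases before the start in Cyp2c67 and 29 bases before it in Cyp2c70, but 40 bases after it in Cyp2c40, where it lies downstream of the annotated start. The other 2 Cyp2 windows with CAAAGTCCA were those of Cyp2c68, which fell, and Cyp2c69, which was not called (-1.32, adjusted p = 0.126). TATAAA was also in the windows of Cyp2c69, Cyp2a4, Cyp2a22, Cyp2d40, Cyp2d26, Cyp2c66 and Cyp2c38, none of which was called. Cyp2c67 had 133, 131 and 116 CPM in WT FFC livers, against 218, 532 and 273 CPM in WT chow livers (log2 change -1.43 ± 0.28 SE, edgeR adjusted p = 0.00286). Cyp2c70, a bile acid hydroxylase of mice, had 333, 248 and 257 CPM in WT FFC livers, against 489.5, 1197 and 743 CPM in WT chow livers (log2 change -1.54 ± 0.26 SE, edgeR adjusted p = 8.61e-04). Cyp2c40 had 8.37, 7.06 and 7.63 CPM in WT FFC livers, against 16.1, 28.3 and 16.8 CPM in WT chow livers (log2 change -1.41 ± 0.33 SE, edgeR adjusted p = 0.00845). In these 3 genes the FFC libraries were the lower ones, against the 3 highest values of Cyp2b13 on FFC. Over all 10688 tested genes with a promoter window CAAAGTCCA occurred in 60, a share of 0.561%, and in 5 of the 33 Cyp2 windows, 15.2%. TATAAA occurred in 7.54% of all windows and in 19 of 33 Cyp2 windows, 57.6%. Paralogues share sequence by descent, so the Cyp2 windows are not independent of each other, and a match describes letters only. Cyp2c69 was called when WT FFC replicate 2 was left out (adjusted p = 0.0248).

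The Cyp2 members with the lowest p were Cyp2c54, Cyp2c44, Cyp2c50 and Cyp2c55. Cyp2c54 had 28.5, 72.6 and 70.9 CPM in WT FFC livers, against 723, 878 and 523 CPM in WT chow livers (log2 change -3.63 ± 0.36 SE, edgeR adjusted p = 1.90e-05), and Cyp2c44, an epoxygenase of arachidonic acid, had 172, 219.7 and 231 CPM in WT FFC livers, against 599, 818 and 666 CPM in WT chow livers (log2 change -1.74 ± 0.19 SE, edgeR adjusted p = 1.90e-05). No FFC library reached a chow library in these genes. Cyp2c29 (-2.34, adjusted p = 3.20e-04), Cyp2c37 (-2.01, adjusted p = 4.51e-04) and Cyp2a5 (-1.81, adjusted p = 7.91e-04) fell as well, and Cyp2e1, the abundant enzyme that oxidises ethanol, fell less (-0.58, adjusted p = 0.0340). The Cyp2c genes are close paralogues, and how the deposited counts treated reads that match several of them is not given in the sources used here. Cyp2e1 was not called when any 1 library was left out (highest adjusted p = 0.164).

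Conjugating enzymes and esterases fell too. Of 21 glutathione S-transferases 11 fell and 1 rose (median -0.74), with summed levels of 9117, 10142 and 9369 CPM in WT FFC livers, against 12693, 14502 and 13559 CPM in WT chow livers. Gsta2 (-1.73, adjusted p = 0.00972), Gstp2 (-1.95, adjusted p = 5.51e-04) and Gstt2 (-1.08, adjusted p = 5.70e-04) were lower and Gstm3 was higher (0.83, adjusted p = 0.0449). Of 19 carboxylesterases, which split ester drugs and lipids, 9 fell and none rose, among them Ces3b (-1.71, adjusted p = 1.74e-05), Ces1b (-1.62, adjusted p = 1.90e-05) and Ces2a (-1.81, adjusted p = 6.12e-05). Of 18 UDP-glucuronosyltransferases 16 were called lower and none higher, but 9 of the tested members are Ugt1a genes that share exons and have nearly the same counts. The members outside that locus included Ugt2a3 (-1.43, adjusted p = 1.54e-04), Ugt2b1 (-1.30, adjusted p = 6.08e-04) and Ugt2b5 (-1.33, adjusted p = 7.68e-04). The Ugt count was 6, 6 and 6 without WT FFC replicate 2, 3 or 4, and 7, 6 and 11 without WT chow replicate 2, 3 or 4, and 10 when GC and length offsets were used. That of the carboxylesterases was 6, 8 and 6 without WT FFC replicate 2, 3 or 4, and 8, 6 and 8 without WT chow replicate 2, 3 or 4. Gstm3 was not called when any 1 library was left out (highest adjusted p = 0.140).

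Steroid-converting dehydrogenases followed the same direction. Of 14 hydroxysteroid dehydrogenases 9 fell and none rose (median -0.98), and in KO livers 3 fell and 1 rose. Hsd3b2 had 25.6, 34.3 and 22.7 CPM in WT FFC livers, against 121, 204 and 152 CPM in WT chow livers (log2 change -2.53 ± 0.29 SE, edgeR adjusted p = 3.49e-05). Hsd11b1, which regenerates active glucocorticoid inside hepatocytes, had 287, 331 and 371 CPM in WT FFC livers, against 742, 997 and 710.5 CPM in WT chow livers (log2 change -1.31 ± 0.20 SE, edgeR adjusted p = 3.24e-04). The diets did not overlap in either gene. Hsd17b2, which inactivates sex steroids, was also lower (-0.97, adjusted p = 0.00162). The count was 4, 7 and 6 without WT FFC replicate 2, 3 or 4, and 8, 5 and 5 without WT chow replicate 2, 3 or 4. 

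Many genes of nitrogen disposal and amino acid breakdown were lower. Of 47 genes of the urea cycle and amino acid catabolism 25 fell and none rose, with a median of -0.62, and in KO livers 21 fell and none rose. Agxt, which detoxifies glyoxylate, had 56.3, 73.0 and 92.2 CPM in WT FFC livers, against 264, 274 and 416 CPM in WT chow livers (log2 change -2.11 ± 0.25 SE, edgeR adjusted p = 3.55e-05). Hal, the first enzyme of histidine breakdown, had 113, 163 and 196 CPM in WT FFC livers, against 605, 349 and 593 CPM in WT chow livers (log2 change -1.71 ± 0.26 SE, edgeR adjusted p = 3.91e-04). Cps1, the entry enzyme of the urea cycle, had 2293, 2029.8 and 2736 CPM in WT FFC livers, against 6932, 4818 and 4766 CPM in WT chow livers (log2 change -1.23 ± 0.26 SE, edgeR adjusted p = 0.00432). FFC libraries were the 3 lowest in these genes, by a larger factor in Agxt than in Cps1. The urea cycle enzymes Otc (-0.98, adjusted p = 0.00359), Asl (-0.97, adjusted p = 0.00183), Ass1 (-0.92, adjusted p = 0.0304) and Arg1 (-0.66, adjusted p = 0.0416) and the glutaminase Gls2 (-1.31, adjusted p = 0.00158) were called lower as well. The count was 11, 17 and 20 without WT FFC replicate 2, 3 or 4, and 20, 22 and 20 without WT chow replicate 2, 3 or 4. Ass1 was not called when WT FFC replicate 2, 3 or 4 or WT chow replicate 2 or 4 was left out (highest adjusted p = 0.137) and Arg1 was not called when any 1 library was left out (highest adjusted p = 0.139).

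Genes of one-carbon metabolism were lower more often than higher. Of 32 methionine and folate genes 14 fell (43.8%) and 2 rose (6.25%), beside 8.03% and 8.76% over all tested genes. Gnmt, which consumes methyl groups (-1.83, adjusted p = 4.68e-05), Cth, which makes cysteine (-2.31, adjusted p = 2.43e-04), Bhmt (-1.22, adjusted p = 0.0244), Cbs (-1.19, adjusted p = 0.0175) and Pemt, the methyltransferase of phosphatidylcholine synthesis (-0.89, adjusted p = 0.00154), were lower. Mthfd1l, a mitochondrial folate enzyme, had 7.75, 5.85 and 5.64 CPM in WT FFC livers, against 0.624, 1.90 and 0.0501 CPM in WT chow livers (log2 change 2.91 ± 0.61 SE, edgeR adjusted p = 0.00411). Every FFC library was above every chow library in Mthfd1l. The count lower was 7, 8 and 13 without WT FFC replicate 2, 3 or 4, and 12, 11 and 12 without WT chow replicate 2, 3 or 4, and 4 were higher without WT chow replicate 2. Bhmt was not called when WT FFC replicate 2 or 3 or WT chow replicate 3 or 4 was left out (highest adjusted p = 0.108) and Cbs was not called when WT FFC replicate 2 or 3 or WT chow replicate 4 was left out (highest adjusted p = 0.108).

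By position in the lobule, both ends of the porto-central axis were lower, the portal end in a larger share. Of 22 periportal genes 12 fell and 1 rose (median -0.78), and of 26 pericentral genes 8 fell and 2 rose (median -0.37). Each list holds enzymes named above (Hal, Gls2 and Etnppl at the portal end, Cyp1a2 and Cyp2c29 at the central end), and the shares of the 2 lists were not tested against each other. Without WT FFC replicate 2 the pericentral count lower was 4. 

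Many clotting proteins of the plasma, which hepatocytes make, were lower. Of 34 coagulation and fibrinolysis genes 19 fell and 3 rose, with a median of -0.63. F10, the protease that activates prothrombin, had 232, 232 and 256 CPM in WT FFC livers, against 491, 649.9 and 575 CPM in WT chow livers (log2 change -1.25 ± 0.16 SE, edgeR adjusted p = 1.04e-04). F11 had 28.6, 37.9 and 34.7 CPM in WT FFC livers, against 103, 127 and 113 CPM in WT chow livers (log2 change -1.76 ± 0.28 SE, edgeR adjusted p = 5.06e-04). Plg, the precursor of plasmin, had 1265, 1379 and 1487 CPM in WT FFC livers, against 2847, 3157 and 2755 CPM in WT chow livers (log2 change -1.08 ± 0.16 SE, edgeR adjusted p = 3.35e-04). The FFC libraries were the lowest 3 in each. Serpinf2, which inhibits plasmin (-1.47, adjusted p = 1.04e-04), F7 (-1.04, adjusted p = 3.09e-04), Proc (-0.89, adjusted p = 0.00388) and Fgb (-1.23, adjusted p = 0.00508) fell too. 

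Members that rose included genes that are not typical hepatocyte products. Plaur, the urokinase receptor, had 53, 39 and 38 counts in WT FFC livers, against 1, 0 and 2 counts in WT chow livers, a CPM ratio of 24.1 with a 95% counting interval of 8.05 to 118. Plat, the tissue plasminogen activator, rose as well (2.74, adjusted p = 0.0279). Without WT chow replicate 3, 6 members were called higher. Plat was not called when WT FFC replicate 2, 3 or 4 or WT chow replicate 2 or 4 was left out (highest adjusted p = 0.107).

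Complement genes fell more often than they rose. Of 29 complement genes 11 fell (37.9%) and 4 rose (13.8%), beside 8.03% and 8.76% over all tested genes. C8b, a part of the membrane attack complex, had 95.7, 72.9 and 67.2 CPM in WT FFC livers, against 431, 752 and 539.7 CPM in WT chow livers (log2 change -2.87 ± 0.28 SE, edgeR adjusted p = 1.03e-05), and C8a (-1.16, adjusted p = 0.00430), C9 (-1.01, adjusted p = 0.00319) and C6 (-0.97, adjusted p = 0.00933), other parts of that complex, fell too. The risers were the receptors C3ar1 (1.96, adjusted p = 3.58e-04) and C5ar1 (3.13, adjusted p = 0.00411), C1qb (1.03, adjusted p = 0.00330) and Cfd, which had 51, 211 and 85 counts in WT FFC livers, against 0, 0 and 3 counts in WT chow livers, a CPM ratio of 64.2 with a counting interval of 21.8 to 313. Without WT FFC replicate 4, 7 members were called lower. C6 was not called when WT FFC replicate 2 or 4 or WT chow replicate 3 was left out (highest adjusted p = 0.0591).

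Of 33 hepatokines and binding proteins 11 fell and 5 rose. Enho, the gene of the secreted peptide adropin (chr4:41638144-41640324), had 0.450, 0.184 and 0.734 CPM in WT FFC livers, against 9.12, 12.0 and 13.9 CPM in WT chow livers (log2 change -4.68 ± 0.56 SE, edgeR adjusted p = 1.04e-04). Igfbp2, an insulin-like growth factor carrier, had 74.4, 109 and 138 CPM in WT FFC livers, against 423, 597 and 433 CPM in WT chow livers (log2 change -2.17 ± 0.22 SE, edgeR adjusted p = 1.16e-05). Fgf21, a stress-induced hormone of the liver, had 4.35, 3.35 and 2.73 CPM in WT FFC livers, against 0.0480, 0.211 and 0.852 CPM in WT chow livers (log2 change 3.22 ± 0.84 SE, edgeR adjusted p = 0.0145). FFC was below chow in every library for Enho and Igfbp2 and above it for Fgf21. Inhbe, an activin subunit, rose as well (1.56, adjusted p = 0.00959). Without WT FFC replicate 2, WT chow replicate 2 or WT chow replicate 3 the number called higher was 3. Fgf21 was not called when WT FFC replicate 2 or WT chow replicate 2 or 3 was left out (highest adjusted p = 0.0670).

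Serine protease inhibitors of the Serpina clade totalled 11712, 12439 and 12517 CPM in WT FFC livers, against 32388, 45829 and 42361 CPM in WT chow livers. The FFC sums were below all chow sums, and 9 of 22 members fell and 3 rose. Serpina1a (-1.72, adjusted p = 1.47e-05), Serpina1c (-1.77, adjusted p = 1.16e-05) and Serpina1d (-1.57, adjusted p = 3.13e-05) are close copies of one another, and Serpina1c also shares exon positions with an abundant antisense transcript. Leaving out any 1 library left 1 member called higher. Serpina5 had 0 counts in all chow libraries and 63 over the FFC libraries, at least 11.7-fold higher against a floor of 3 counts over the group. 

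Genes of the protein-making and respiratory machinery fell in large numbers. Of 81 cytosolic ribosomal protein genes 73 fell and none rose, with a median log2 change of -0.90, and in KO livers 76 fell and none rose. Their summed level was 9685, 9220.0 and 9717 CPM in WT FFC livers, against 12980.0, 21788 and 17448 CPM in WT chow livers. Chow replicate 2 lay nearest to the FFC sums and chow replicate 3 farthest from them. Rpsa, of the small subunit, had 227, 214 and 221 CPM in WT FFC livers, against 353, 562 and 478 CPM in WT chow livers (log2 change -1.07 ± 0.19 SE, edgeR adjusted p = 0.00101), and Rpl36, of the large subunit, had 21.7, 22.8 and 32.0 CPM in WT FFC livers, against 40.8, 105 and 79.8 CPM in WT chow livers (log2 change -1.56 ± 0.27 SE, edgeR adjusted p = 0.00113). With each library left out the count was 52, 48 and 52 without WT FFC replicate 2, 3 or 4, and 77, 37 and 59 without WT chow replicate 2, 3 or 4. 

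Subunits of complex I, the first enzyme of the respiratory chain, also fell: 34 of 45 fell and none rose (median -0.77), with sums of 2736, 2767 and 2840.0 CPM in WT FFC livers, against 3895, 5173 and 4546 CPM in WT chow livers. The FFC sums were the lower ones. Ndufc2 (-1.16, adjusted p = 6.69e-04) and Ndufs8 (-1.09, adjusted p = 9.72e-04) had the lowest p. The count was 19, 23 and 25 without WT FFC replicate 2, 3 or 4, and 32, 17 and 26 without WT chow replicate 2, 3 or 4. Of 29 subunits of ATP synthase and cytochrome oxidase 18 fell (median -0.72), of 77 mitochondrial ribosomal proteins 31 fell (median -0.51) and of 49 proteasome genes 17 fell (median -0.41), and none of these rose. For ATP synthase and cytochrome oxidase the count was 12, 14 and 13 without WT FFC replicate 2, 3 or 4, and 19, 11 and 16 without WT chow replicate 2, 3 or 4. Mitochondrial ribosomal proteins had 7, 10 and 6 without WT FFC replicate 2, 3 or 4, and 35, 7 and 14 without WT chow replicate 2, 3 or 4, and the proteasome had 7, 6 and 6 without WT FFC replicate 2, 3 or 4, and 20, 5 and 7 without WT chow replicate 2, 3 or 4. 

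Transcript length moved with the change over all genes. The median longest transcript was 1094 bases in cytosolic ribosomal, 1200 in complex I and 1001 in ATP synthase and cytochrome oxidase genes. It was 1806 in mitochondrial ribosomal and 1883 in proteasome genes. Other groups were short as well (glutathione S-transferases 1179, major urinary proteins 927) or long (collagens 6284, ADAM and ADAMTS proteases 5102, basement membrane genes 4872). Among the 3226 tested genes with the shortest transcripts, of at most 1410 bases, 3.1% were called higher and 16.1% lower with a median change of -0.39, and among the 3225 with the longest, of at least 4874 bases, 14.2% were called higher and 2.36% lower with a median of 0.27. In KO livers the medians of these bins were -0.46 and 0.43. With offsets that take out each library's trend of level on GC content and length, 49 ribosomal protein genes (median -0.61), 22 complex I genes, 10 genes of ATP synthase and cytochrome oxidase, 21 mitochondrial ribosomal genes and 7 proteasome genes were lower. Of 883 processed pseudogenes, a class that includes many copies of ribosomal protein genes and can share reads with them, 99 were called lower and 4 higher. The part of length in these results was not tested beyond the offsets. The male-biased and urea cycle counts with the same offsets were 16 and 28. 

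**Figure D3:**
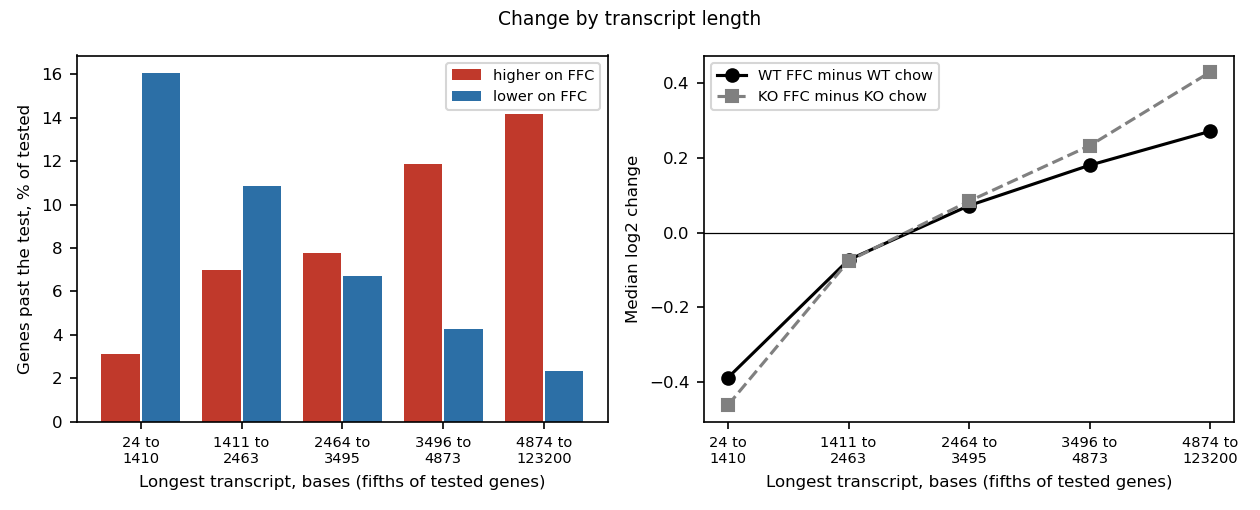
Left, share of tested genes called higher (red) and lower (blue) on FFC in WT livers in 5 equal bins of longest transcript length; right, median log2 change in the same bins for WT FFC minus WT chow (circles) and KO FFC minus KO chow (squares). The WT median runs from -0.39 in the bin of the shortest transcripts to 0.27 in the longest.

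Markers of several cell types other than the hepatocyte took a larger share of the RNA on FFC. Of 11 hepatocyte markers 9 fell and none rose, and their sum was 81810.0 to 105400.0 CPM in WT FFC livers and 165600.0 to 233800.0 CPM in WT chow livers. Of 14 markers of stellate cells, the vitamin A-storing cells that form scar, 11 rose and none fell (sum 479.5 to 552 CPM in WT FFC livers and 187 to 334 CPM in WT chow livers). Of 13 endothelial markers 6 rose (sum 440.4 to 528 CPM in WT FFC livers and 282 to 328 CPM in WT chow livers), of 15 macrophage markers 12 rose and 1 fell (sum 564 to 675 CPM in WT FFC livers and 248 to 315 CPM in WT chow livers), and of 13 T and NK cell markers 1 rose (sum 6.63 to 10.3 CPM in WT FFC livers and 5.38 to 8.72 CPM in WT chow livers). None of 8 cholangiocyte markers was called (sum 110.1 to 206 CPM in WT FFC livers and 29.1 to 86.3 CPM in WT chow livers). In bulk tissue, fewer cells of a type and less RNA per cell cannot be told apart, and the part of cell numbers in the gene groups above and below was not tested. 

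Many matrix genes beyond the fibrillar collagens rose. Of 50 basement membrane and proteoglycan genes 27 rose and 4 fell, with a median of 1.22, and in KO livers 12 rose and 4 fell. Nid1, which links laminin to collagen IV, had 49.7, 33.8 and 37.4 CPM in WT FFC livers, against 6.67, 12.0 and 8.12 CPM in WT chow livers (log2 change 2.18 ± 0.26 SE, edgeR adjusted p = 3.64e-05). Thbs2, a matricellular thrombospondin, had 5.20, 2.74 and 3.90 CPM in WT FFC livers, against 0.480, 0.791 and 0.501 CPM in WT chow livers (log2 change 2.73 ± 0.41 SE, edgeR adjusted p = 3.49e-04). Lamb3, a laminin chain of epithelia, had 9.50, 9.17 and 9.25 CPM in WT FFC livers, against 2.64, 1.85 and 2.71 CPM in WT chow livers (log2 change 1.95 ± 0.27 SE, edgeR adjusted p = 1.75e-04). FFC libraries were the higher ones in all 3 genes. 

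The heparan sulfate carrier Gpc1 (1.76, adjusted p = 1.00e-04), the perlecan gene Hspg2 (1.59, adjusted p = 0.00503) and the small proteoglycans Bgn (1.4, adjusted p = 0.00354) and Prelp (1.42, adjusted p = 9.44e-04) rose. The 4 members that fell included Sdc2, a syndecan of hepatocytes (-1.15, adjusted p = 3.51e-04), Vtn, the plasma protein vitronectin (-1.23, adjusted p = 4.26e-04), and Lama3, another epithelial laminin chain, which had 2.05, 3.35 and 1.91 CPM in WT FFC livers, against 12.0, 14.5 and 9.37 CPM in WT chow livers (log2 change -2.29 ± 0.41 SE, edgeR adjusted p = 0.00122). The count higher was 16, 18 and 17 without WT FFC replicate 2, 3 or 4, and 17, 25 and 18 without WT chow replicate 2, 3 or 4. Of 30 collagen genes 13 rose and 1 fell, Col25a1, which had 3, 3 and 6 counts in WT FFC livers, against 36, 54 and 26 counts in WT chow livers (log2 change -4.07 ± 0.69 SE, edgeR adjusted p = 8.97e-04). 

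Proteases that cut matrix and cell surface proteins rose. Of 31 ADAM and ADAMTS genes 11 rose and none fell (median 1.62), and in KO livers 4 rose and 1 fell. Adamts13, which trims von Willebrand factor and is made by stellate cells, had 6.15, 6.67 and 7.95 CPM in WT FFC livers, against 1.68, 1.90 and 2.76 CPM in WT chow livers (log2 change 1.71 ± 0.34 SE, edgeR adjusted p = 0.00256). Adam11 (1.75, adjusted p = 2.28e-04) and Adamts10 (1.90, adjusted p = 0.00607) rose, and Adamts4 had 0 counts in all chow libraries and 67 over the FFC libraries, at least 12.4-fold higher against the floor of 3 counts. The count was 5, 9 and 6 without WT FFC replicate 2, 3 or 4, and 7, 7 and 6 without WT chow replicate 2, 3 or 4, and 7 with the GC and length offsets. 

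Growth factor receptors and their ligands rose more often than they fell. Of 46 receptor tyrosine kinases and ligands 17 rose (37.0%) and 2 fell (4.35%), beside 8.76% and 8.03% over all tested genes. Egfr, the receptor through which hepatocytes sense epidermal growth factor (chr11:16752203-16918158), had 229, 126 and 145 CPM in WT FFC livers, against 303, 712 and 732 CPM in WT chow livers (log2 change -1.80 ± 0.40 SE, edgeR adjusted p = 0.00820). Fgfr1 was the other to fall (-1.51, adjusted p = 0.00650). Ntrk2, the receptor of brain-derived neurotrophic factor (chr13:58806596-59133970), had 20.3, 17.5 and 23.2 CPM in WT FFC livers, against 0.144, 0.211 and 0.602 CPM in WT chow livers (log2 change 5.98 ± 0.43 SE, edgeR adjusted p = 4.57e-07). Egfr was thus lower in every FFC library and Ntrk2, near the detection limit on chow, was higher in every one. 

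Pdgfrb (2.35, adjusted p = 3.17e-04) and Pdgfra (1.88, adjusted p = 0.00405), receptors of stellate cells and fibroblasts, Epha2 (1.82, adjusted p = 1.65e-04), the TAM receptor Axl (1.42, adjusted p = 7.52e-04) with its ligand Gas6 (1.76, adjusted p = 3.55e-04), and Hgf (1.04, adjusted p = 0.0161) rose. The count higher was 10, 12 and 10 without WT FFC replicate 2, 3 or 4, and 12, 12 and 11 without WT chow replicate 2, 3 or 4. Of 32 semaphorins, plexins and guidance receptors 10 rose and none fell, but with the GC and length offsets 3 rose and 2 fell, and the count was 4, 4 and 4 without WT FFC replicate 2, 3 or 4, and 4, 8 and 3 without WT chow replicate 2, 3 or 4. Sema5b had 8.62, 10.7 and 12.1 CPM in WT FFC livers, against 3.46, 0.791 and 1.10 CPM in WT chow livers (log2 change 2.54 ± 0.46 SE, edgeR adjusted p = 0.00157), and Sema6d rose too (1.75, adjusted p = 1.95e-04). Of 18 Notch pathway genes 5 rose, among them Heyl (2.30, adjusted p = 0.00831), Dll4 (1.58, adjusted p = 0.00944) and Jag1 (1.16, adjusted p = 0.0453), and Hes6 fell (-0.76, adjusted p = 0.0167). Leaving out any library except WT chow replicate 4 left 3 of these called higher. Hgf was not called when WT FFC replicate 2, 3 or 4 or WT chow replicate 4 was left out (highest adjusted p = 0.0758) and Jag1 was not called when any 1 library was left out (highest adjusted p = 0.162). Hes6 was not called when WT FFC replicate 2 or 4 or WT chow replicate 3 was left out (highest adjusted p = 0.0755).

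Cytoskeletal and membrane-binding genes rose. Of 34 actin and intermediate filament genes 15 rose and none fell (median 0.76), and of 20 annexins and S100 proteins 7 rose and 2 fell. Anxa2, an annexin of activated epithelia and endothelia, had 85.1, 57.7 and 64.4 CPM in WT FFC livers, against 9.65, 13.3 and 12.1 CPM in WT chow livers (log2 change 2.56 ± 0.28 SE, edgeR adjusted p = 1.89e-05). Capg, a capping protein of actin filaments, had 9.92, 6.85 and 10.04 CPM in WT FFC livers, against 1.06, 1.69 and 1.05 CPM in WT chow livers (log2 change 2.82 ± 0.40 SE, edgeR adjusted p = 2.06e-04). Flna, the crosslinker filamin A, had 51.0, 45.3 and 50.3 CPM in WT FFC livers, against 12.0, 16.9 and 14.1 CPM in WT chow livers (log2 change 1.77 ± 0.20 SE, edgeR adjusted p = 2.35e-05). The libraries of the 2 diets did not overlap in these genes. The actin count was 8, 11 and 10 without WT FFC replicate 2, 3 or 4, and 11, 12 and 10 without WT chow replicate 2, 3 or 4, and that of annexins and S100 proteins was 3, 5 and 4 without WT FFC replicate 2, 3 or 4, and 3, 5 and 6 without WT chow replicate 2, 3 or 4. 

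Among sugar-binding and adhesion proteins, 5 of 8 galectins rose and none fell, with Lgals3 (2.27, adjusted p = 0.00233) and Lgals1 (1.65, adjusted p = 6.12e-05) among them, and 3 were higher without WT FFC replicate 3, WT FFC replicate 4 or WT chow replicate 3. Of 32 ephrin, integrin and adhesion receptors 11 rose and 1 fell. Itga9 (1.44, adjusted p = 2.26e-04) and the hyaluronan receptor Cd44 (1.82, adjusted p = 3.21e-04) rose, and Ceacam2 fell (-1.22, adjusted p = 0.0346). Of 23 tetraspanins 7 rose, including Cd63 (3.02, adjusted p = 0.00412) and Cd9 (1.17, adjusted p = 0.00309), and Tspan33 fell (-1.25, adjusted p = 0.0238). With WT FFC replicate 2, WT FFC replicate 4 or WT chow replicate 4 left out 3 tetraspanins were higher. Ceacam2 was not called when WT FFC replicate 2 or 3 or WT chow replicate 2, 3 or 4 was left out (highest adjusted p = 0.131) and Tspan33 was not called when WT FFC replicate 2, 3 or 4 or WT chow replicate 3 or 4 was left out (highest adjusted p = 0.0854).

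Several targets of p53 rose. Of 22 targets of p53, the factor that answers DNA damage and other stress, 9 rose and none fell (median 0.82), and in KO livers 10 rose and none fell. Cdkn1a, the cell-cycle inhibitor p21 (chr17:29090979-29100722), had 18.5, 9.04 and 17.1 CPM in WT FFC livers, against 0.768, 0.422 and 0.251 CPM in WT chow livers (log2 change 4.93 ± 0.55 SE, edgeR adjusted p = 2.46e-05). Zmat3 had 7.87, 8.62 and 8.51 CPM in WT FFC livers, against 3.89, 2.06 and 2.96 CPM in WT chow livers (log2 change 1.49 ± 0.27 SE, edgeR adjusted p = 0.00144). In both genes each FFC library was above each chow library. Sesn2 (1.24, adjusted p = 0.00706), Gdf15, a hormone of cell stress (1.97, adjusted p = 0.0315), and Eda2r (2.59, adjusted p = 0.0194) rose, and Psrc1 had 0 counts on chow and 41 over the FFC libraries, at least 7.59-fold higher. The count was 3, 4 and 4 without WT FFC replicate 2, 3 or 4, and 5, 6 and 5 without WT chow replicate 2, 3 or 4. Psrc1 was not called when WT FFC replicate 2, 3 or 4 or WT chow replicate 4 was left out (highest adjusted p = 0.0631). Gdf15 was not called when WT FFC replicate 2, 3 or 4 or WT chow replicate 2 or 3 was left out (highest adjusted p = 0.121) and Eda2r was not called when WT FFC replicate 2 or 3 or WT chow replicate 2 was left out (highest adjusted p = 0.0741).

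Of 34 DNA replication and mitosis genes 11 rose and 1 fell. Ccnd1, the cyclin of G1 phase, had 77.5, 45.7 and 54.7 CPM in WT FFC livers, against 19.3, 15.0 and 15.9 CPM in WT chow livers (log2 change 1.82 ± 0.30 SE, edgeR adjusted p = 7.68e-04). Mcm2, of the replicative helicase, had 8.51, 4.8 and 5.25 CPM in WT FFC livers, against 2.21, 1.21 and 1.65 CPM in WT chow livers (log2 change 1.86 ± 0.38 SE, edgeR adjusted p = 0.00342). Both were higher in every FFC library. Mki67, a marker of dividing cells, was low on chow, with 279, 152 and 132 counts in WT FFC livers, against 20, 20 and 17 counts in WT chow livers (log2 change 2.45 ± 0.76 SE, edgeR adjusted p = 0.0394). The gene that fell was Tk1 (-0.85, adjusted p = 0.00862), whose exons overlap those of the more abundant Afmid. The count was 2, 6 and 4 without WT FFC replicate 2, 3 or 4, and 6, 4 and 7 without WT chow replicate 2, 3 or 4. Mki67 was not called when any 1 library was left out (highest adjusted p = 0.139) and Tk1 was not called when WT FFC replicate 2 was left out (adjusted p = 0.0589).

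Genes that liver expresses before birth or in tumours rose. Of 21 such genes 9 rose and none fell (median 1.24). Ly6d, a surface protein, had 22.4, 12.4 and 15.8 CPM in WT FFC livers, against 0, 0.264 and 1.00 CPM in WT chow livers (log2 change 5.31 ± 0.61 SE, edgeR adjusted p = 4.97e-05). Igf2bp2, an RNA-binding protein of the fetal liver, had 2.92, 2.95 and 2.14 CPM in WT FFC livers, against 0.144, 0.158 and 0.351 CPM in WT chow livers (log2 change 3.59 ± 0.53 SE, edgeR adjusted p = 2.84e-04). Hk2, the hexokinase of dividing cells, rose (2.84, adjusted p = 0.00475), as did Gpc3 (2.99, adjusted p = 0.0220), and the imprinted RNA H19 had 51, 39 and 116 counts in WT FFC livers, against 2, 0 and 0 counts in WT chow livers, a CPM ratio of 57.2 with a counting interval of 15.6 to 475. The count was 6 without WT FFC replicate 3 or 4. Gpc3 was not called when WT FFC replicate 2 or 3 or WT chow replicate 2 or 3 was left out (highest adjusted p = 0.0861) and H19 was not called when WT FFC replicate 4 or WT chow replicate 3 was left out (highest adjusted p = 0.0522).

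Acyl-CoA thioesterases, which free fatty acids from coenzyme A, rose in 6 of 12 members and fell in none (median 1.01). Acot1, in the cytosol, had 44.4, 43.9 and 42.2 CPM in WT FFC livers, against 14.1, 13.6 and 13.8 CPM in WT chow livers (log2 change 1.65 ± 0.25 SE, edgeR adjusted p = 4.11e-04). Acot2, in mitochondria, had 14.9, 18.4 and 14.0 CPM in WT FFC livers, against 4.42, 2.27 and 4.31 CPM in WT chow livers (log2 change 2.1 ± 0.48 SE, edgeR adjusted p = 0.00760). Acot3, in peroxisomes, had 56.2, 70.7 and 33.3 CPM in WT FFC livers, against 11.3, 11.7 and 4.36 CPM in WT chow livers (log2 change 2.55 ± 0.69 SE, edgeR adjusted p = 0.0345). Every FFC library exceeded every chow library in these 3 genes, which neighbour each other and are close paralogues. Acot5 had 0 counts on chow and 50 on FFC, at least 9.25-fold higher, but was not called when any 1 library was left out (highest adjusted p = 0.0892). Without WT FFC replicate 2 or 3, or any chow library, 4 members were called. 

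Smaller signalling groups moved too. Of 12 regulators of G protein signalling 4 rose, Rgs1 (3.04, adjusted p = 4.08e-04), Rgs19 (2.49, adjusted p = 0.00128), Rgs2 (1.26, adjusted p = 0.0157) and Rgs5 (1.06, adjusted p = 0.00653). Gpr110, an adhesion-type receptor (chr17:43270329-43324737), had 0.253, 0.184 and 0.382 CPM in WT FFC livers, against 10.03, 9.12 and 11.1 CPM in WT chow livers (log2 change -5.19 ± 0.53 SE, edgeR adjusted p = 1.30e-05), and Gpr35 rose (4.02, adjusted p = 0.00345). Of 25 targets of ATF4, the factor of the amino acid response, 7 rose and 4 fell in WT livers, and 3 rose and 8 fell in KO livers. Asns, the asparagine synthetase, fell (-3.43, adjusted p = 0.0162), as did Atf4 itself (-0.73, adjusted p = 0.0214), whereas Atf3 rose (3.66, adjusted p = 0.00217). With 1 library left out, those higher were 4, 5 and 5 without WT FFC replicate 2, 3 or 4, and 4, 4 and 7 without WT chow replicate 2, 3 or 4, and those lower were 1, 2 and 1 without WT FFC replicate 2, 3 or 4, and 4, 3 and 2 without WT chow replicate 2, 3 or 4. Rgs2 was not called when WT FFC replicate 2 or WT chow replicate 2 or 4 was left out (highest adjusted p = 0.0765) and Asns was not called when WT FFC replicate 2, 3 or 4 was left out (highest adjusted p = 0.0775). Atf4 was not called when WT FFC replicate 2, 3 or 4 or WT chow replicate 4 was left out (highest adjusted p = 0.102).

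**Figure D4:**
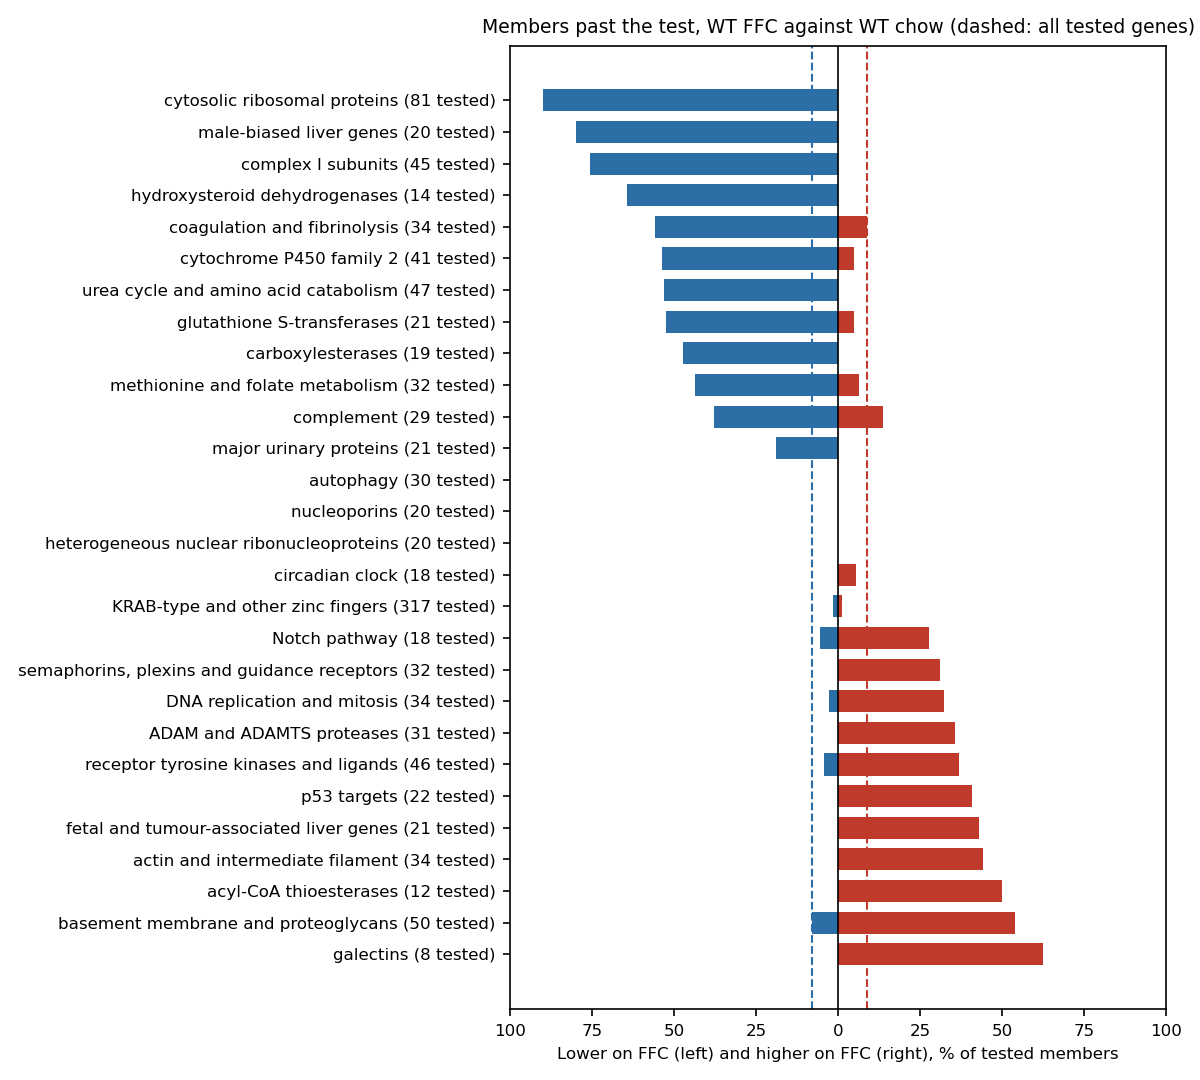
Share of tested members of 28 gene groups called lower (blue, left) and higher (red, right) in WT FFC against WT chow livers, with dashed lines at 8.03% lower and 8.76% higher over all tested genes. Cytosolic ribosomal proteins and male-biased genes reach farthest to the left, and galectins and basement membrane genes farthest to the right.

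Some groups showed few or no calls, and the 95% intervals say how firmly. Of 30 autophagy genes none was called, and in 29 the interval of the change lay within 1 log2 unit of 0. None of 10 splicing SR proteins (10 within 1 unit), of 20 heterogeneous nuclear ribonucleoproteins (19) and of 20 nucleoporins (12) was called. Over all tested genes 7106 intervals, 43.6%, lay within 1 unit. Of 18 clock genes only Per2 was called (1.02, adjusted p = 0.00267), with 10 within 1 unit. With the GC and length offsets 5 autophagy genes and 2 nucleoporin genes were called lower. 

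Among regulators that define the hepatocyte the share called higher was near that of all tested genes. Of 40 hepatocyte transcription factors and nuclear receptors 3 rose (Ppara, Prox1 and Gata6) and 1 fell (Xbp1), with 24 intervals within 1 unit. The shares were 7.5% higher and 2.5% lower, beside 8.76% and 8.03% over all tested genes. Prox1 was not called when WT FFC replicate 2 or 3 or WT chow replicate 2 or 4 was left out (highest adjusted p = 0.107), Xbp1 when WT FFC replicate 3 or 4 or WT chow replicate 3 or 4 was (0.142, the highest adjusted p), and Gata6 when WT FFC replicate 4 was (adjusted p = 0.0586). Hnf4a had 413, 359.5 and 399 CPM in WT FFC livers, against 457, 382 and 444 CPM in WT chow livers (log2 change -0.13 ± 0.19 SE, edgeR adjusted p = 0.682, 95% interval -0.52 to 0.26). Ppara, the fatty acid-sensing receptor, had 161, 187 and 171 CPM in WT FFC livers, against 119.8, 58.5 and 57.6 CPM in WT chow livers (log2 change 1.14 ± 0.23 SE, edgeR adjusted p = 0.00344). The Hnf4a values of the 2 diets overlapped and those of Ppara did not. Of 317 zinc finger genes 4 rose (1.26%) and 5 fell (1.58%). With a library left out, those higher were 0, 1 and 0 without WT FFC replicate 2, 3 or 4, and 0, 0 and 1 without WT chow replicate 2, 3 or 4, and those lower were 1, 2 and 2 without WT FFC replicate 2, 3 or 4, and 9, 2 and 2 without WT chow replicate 2, 3 or 4. None of 20 potassium channels was called, but only 1 had an interval within 1 unit. 

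The same diet contrast was made in knockout livers, whose libraries shared the filter, scaling and estimate of the spread with the WT comparison, and gave 4312 calls (26.5%). Of the WT calls 1575 were also called in the same direction in KO livers, 57.6% of the WT calls and 36.5% of the KO calls, and 9 in the opposite one. The sign agreed in 2524 of the 2734 WT calls, 92.3%. The same share over all tested genes was not counted, and the trend with transcript length ran the same way in both genotypes. Hsd3b5 fell in WT livers and was not called in KO livers, with 2.36, 6.75 and 75.4 CPM in KO FFC livers, against 241, 69.7 and 66.9 CPM in KO chow livers (log2 change -2.16 ± 1.42 SE, edgeR adjusted p = 0.300), and the difference between the genotypes was not called (-4.67 ± 2.09 SE, edgeR adjusted p = 0.322). Ntrk2 had 25.8, 17.7 and 21.6 CPM in KO FFC livers, against 0, 0.153 and 0 CPM in KO chow livers (log2 change 8.52 ± 0.54 SE, edgeR adjusted p = 1.52e-07), again without a called difference (-2.55 ± 0.90 SE, edgeR adjusted p = 0.191). Serpina1e was lower in both genotypes, with a KO log2 change of -3.94. 

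The test of the difference itself called 8 of 16283 genes, 0.0491%. Cyp17a1 had 4.78, 11.1 and 9.91 CPM in KO FFC livers, against 4.65, 8.92 and 7.57 CPM in KO chow livers (log2 change 0.29 ± 0.30 SE, edgeR adjusted p = 0.507), so its rise on FFC was larger in WT livers, by a log2 difference of 2.48 ± 0.43 SE, edgeR adjusted p = 0.0467. Clec2h, a C-type lectin, had 1.74, 2.40 and 2.61 CPM in WT FFC livers, against 35.8, 41.1 and 24.0 CPM in WT chow livers, and 10.1, 3.75 and 6.88 CPM in KO FFC livers, against 18.2, 16.1 and 21.2 CPM in KO chow livers. Its fall was larger in WT livers (difference -2.48 ± 0.42 SE, edgeR adjusted p = 0.0467). 

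**Figure D5:**
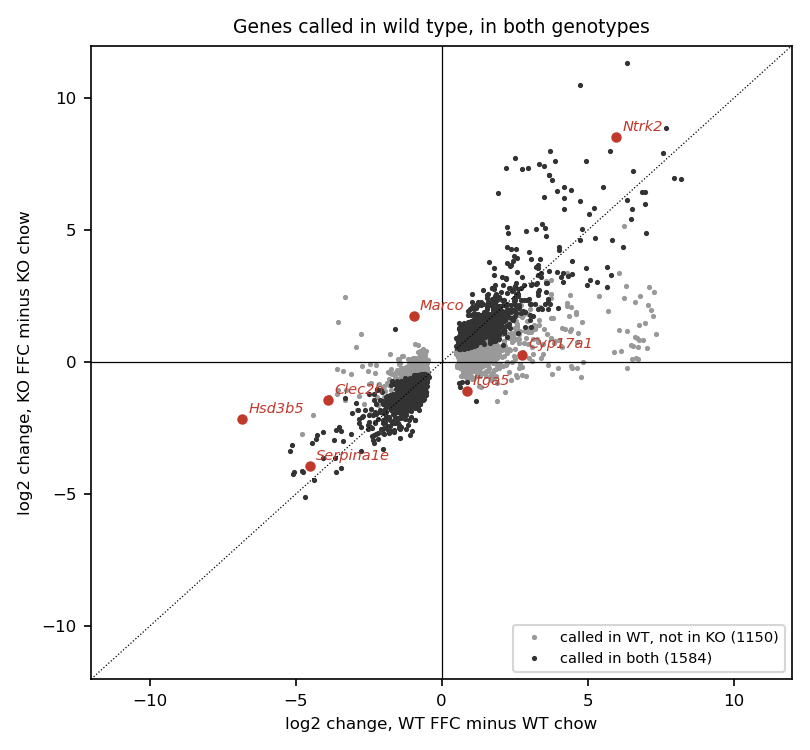
Log2 change on FFC of the 2734 genes called in WT livers, with the WT change on the horizontal and the KO change on the vertical axis; black points were also called in KO livers, grey points were not, and the dotted line marks equal change. Most points lie in the quadrants of equal sign, and Cyp17a1, Marco, Itga5 and Clec2h, marked in red with 3 other named genes, are among those whose difference was called.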

How the data were processed

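Liver mRNA of 12 libraries, 3 in each of 4 groups, was sequenced as paired-end reads on a HiSeq 2000. Per the series design text and the labels, the authors aligned reads to mm10 with TopHat 2.1.0, counted them per Ensembl gene with featureCounts 1.4.6 and used edgeR 3.18.1. The deposited table holds whole-number counts per gene, which are the values used here. Strandedness, the Ensembl release and the treatment of reads that match several genes are not given in the sources used here, so overlapping genes on opposite strands (among those named, Acot3, Cish, Stat5a, Bhmt, Serpina1c, Ccnd1 and Tk1) may share reads.

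Genes were filtered with filterByExpr by group and scaled with TMM factors (trimmed M-value means). All 12 libraries entered a single fit with 4 groups in R 4.3.3, using glmQLFit (robust) and the two-sided glmQLFTest of edgeR 4.0.16 beside limma 3.58.1. Adjustment of p-values (Benjamini-Hochberg) ran over 16283 genes. Changes are WT FFC minus WT chow, and SE comes from the fitted change and its test statistic. Intervals are 95%. Where a group had 0 counts the fold is a bound against a group floor of 3 counts. Where it had 1 to 3 the ratio has an exact binomial counting interval. These cover counting error only. In simulated counts for the same comparison and 16283 genes, 39 of 100 genes changed by a log2 of 1 and 93 of 100 changed by 2 were recovered, with 7 false calls. Each simulated gene had the same spread in all groups, and only 200 genes, of higher counts, were changed. In the data the spread differed between groups (0.137 in WT FFC, 0.285 in WT chow, 0.2055 in KO FFC, 0.438 in KO chow). All 4 groups entered the shared estimate, and 2734 genes were called. The simulated rates may therefore not hold for the data.

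The gene lists (40 themes, 13 sets of cell type markers) and 48 families by symbol were chosen with earlier results of these data known, and no list was tested as a set. Named genes were those called at a mean log2 CPM of at least 2 with an established symbol and no overlap between the diets, 15 in each direction by fold outside 2 lipid and macrophage lists and 10 by CPM, up to 4 members of each list by p, 10 noncoding RNAs, and S1pr1 and Lyz2. Further members were named to describe a list, after their values were seen, and some genes are not reported here. Promoters came from RefSeq windows of GRCm38.p6, and 10688 of 16252 tested symbols had one. Of 24 motifs counted on both strands, CAAAGTCCA and TATAAA are reported as examples picked after the counts were seen. They were not the only motifs whose share differed between the Cyp2 windows and all windows. A motif not shown here was in 9.09% of Cyp2 windows against 0.299% of all windows, and another in 6.06% against 61.0%. TTCNNNGAA, the STAT-type element, was in 7.19% of all windows and 2 of 14 male-biased ones. Alternatives were median-ratio size factors, no count filter, the authors' stated filter, DESeq2 1.42.0, limma-voom, the 6 wild-type libraries alone, a replicate block, each library left out, thinning to equal totals, and offsets for GC content and transcript length.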

Additional observations from a re-analysis of the deposited data

Results flagged for a closer look

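The change on FFC differed between the genotypes in 8 genes by the test of the difference itself (WT change minus KO change), each with an adjusted p of 0.0467. In Cyp17a1 the WT log2 change was 2.77 ± 0.32 SE and the KO change 0.29 ± 0.30 SE, a difference of 2.48 ± 0.43 SE, edgeR adjusted p = 0.0467. Itga5, an integrin chain, had 18.2, 14.9 and 16.3 CPM in WT FFC livers, against 10.1, 8.23 and 8.82 CPM in WT chow livers, and 14.3, 10.9 and 13.3 CPM in KO FFC livers, against 37.2, 25.7 and 18.4 CPM in KO chow livers, so that FFC libraries were higher in WT and lower in KO livers (difference 1.94 ± 0.33 SE, edgeR adjusted p = 0.0467). Marco, a scavenger receptor of macrophages, had 5.79, 4.64 and 9.01 CPM in WT FFC livers, against 8.64, 16.1 and 13.0 CPM in WT chow livers, and 26.1, 48.6 and 50.1 CPM in KO FFC livers, against 11.7, 16.1 and 9.08 CPM in KO chow livers (difference -2.72 ± 0.43 SE, edgeR adjusted p = 0.0467). Its WT libraries overlapped between the diets and its KO libraries did not. In Clec2h the WT change was -3.90 ± 0.33 SE and the KO change -1.42 ± 0.30 SE, a difference of -2.48 ± 0.42 SE, edgeR adjusted p = 0.0467. Emc10, a subunit of a membrane protein insertion complex, had a WT change of -0.16 ± 0.18 SE and a KO change of -1.71 ± 0.18 SE, a difference of 1.55 ± 0.25 SE, edgeR adjusted p = 0.0467. Klhl25 had a WT change of 0.82 ± 0.24 SE and a KO change of -1.12 ± 0.24 SE, a difference of 1.93 ± 0.34 SE, edgeR adjusted p = 0.0467. N6amt1, a methyltransferase, had a WT change of -0.37 ± 0.23 SE and a KO change of 1.63 ± 0.25 SE, a difference of -2.0 ± 0.34 SE, edgeR adjusted p = 0.0467. Rfx4, a transcription factor, had a WT change of -0.26 ± 0.29 SE and a KO change of 2.24 ± 0.32 SE, a difference of -2.50 ± 0.43 SE, edgeR adjusted p = 0.0467.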

How the results depend on the processing

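Of 367 genes followed through the alternatives 0 reversed and 247 stayed on the same side of the threshold in every alternative that tested them. With 1 library left out the calls ran from 1318 to 2490, with 691 to 1165 higher and 627 to 1325 lower. The 6 wild-type libraries alone gave 4137 calls, 2205 of them higher. With a minimum log2 change of 1 there were 1569 calls, 497 of them lower. DESeq2 gave 3541 calls, limma-voom 3136, median-ratio size factors 2731, the authors' filter 2300 of 11091 genes, no filter 3204 of 25570, thinned counts 2655 and the offsets for GC content and length 2611. Same-numbered WT libraries did not deviate together (correlations -0.044, -0.0031 and -0.011). The labels do not say what the numbers mark, so whether they pair libraries is not known. With the replicate block 2773 genes were called, or 3832 in the wild-type libraries alone. The block left 14 of the named genes no longer called, among them Gsta2 (edgeR adjusted p = 0.107). In the wild-type libraries alone it left 10 no longer called, among them Cyp2a5 (edgeR adjusted p = 0.143), Egfr (0.131), Cd63 (0.0771) and Inhbe (0.0579). Of 88 list medians 67 moved by more than the replicate spread in at least 1 alternative. With GC and length offsets 30 of the named genes were no longer called, and Hnf4a was called lower (log2 change -0.45). Few libraries limit what small changes can show: 43.6% of all intervals lay within 1 log2 unit of 0. With no filter the fit gave several variable genes very small adjusted p-values, for a cause that was not tested. Mup7 had 3.60e-61 there, against 0.101 in the main result and 0.000998 to 0.0353 in the other 3 settings that called it. Bcl6 had 1.72e-22, against 0.102 and 0.0118 to 0.0421 in the other 4 settings that called it. Ugt2b38 had 2.39e-14 against 0.0527, and Cish 1.61e-13 against 0.131.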

Other observations

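Beside 16.8% of all tested genes, noncoding transcripts had few calls, and that difference was not tested. Of 449 long intergenic noncoding RNAs 22 were called higher and 13 lower, and of 547 antisense RNAs 18 were higher and 21 lower. Meg3, an imprinted noncoding RNA, had 0.421, 0.290 and 0.440 CPM in WT FFC livers, against 8.30, 2.22 and 4.51 CPM in WT chow livers (log2 change -3.70 ± 0.50 SE, edgeR adjusted p = 1.54e-04), and all FFC libraries were below all chow libraries. Hnf4aos, which lies beside Hnf4a, had 42, 58 and 68 counts in WT FFC livers, against 187, 133 and 140 counts in WT chow livers (log2 change -2.29 ± 0.34 SE, edgeR adjusted p = 3.49e-04), while Hnf4a itself was not called. B430119L08Rik (-1.71, adjusted p = 1.89e-05) and Gm15756 (-1.60, adjusted p = 8.55e-05) also fell, and their exons lie opposite Serpina1c and Aldh1l1, from which they cannot be told apart in counts without strand. 

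41 called genes had 0 counts in all 3 WT chow libraries, and no called gene had 0 counts in all 3 WT FFC libraries. Sprr1a, a squamous cell envelope protein, had 150 counts over the FFC libraries, at least 27.8-fold higher against a floor of 3 counts over the group. Egr2, an immediate early transcription factor, had 128 counts (at least 23.7-fold), Siglecf, a lectin of eosinophils, 82 (at least 15.2-fold), and Sphk1, which makes sphingosine 1-phosphate, 49 (at least 9.07-fold). The number of genes with at least 1 count was 20921 to 21308 in WT FFC libraries and 17268 to 19029 in WT chow libraries. After thinning to equal totals it was 20322 to 20713 in WT FFC and 17185 to 18880 in WT chow libraries.

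GC content moved with the change in opposite ways in the genotypes. Among the 3226 tested genes with the lowest GC content the median log2 change was -0.10 in WT livers and 0.24 in KO livers, and among the 3226 with the highest it was 0.17 in WT and -0.40 in KO livers. The part of GC content in the results was tested only by the offsets given above.

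Among cytosolic heat shock genes 5 of 24 rose and none fell, among them Hspb1 (1.85, adjusted p = 0.00157) and Hsp90aa1 (0.90, adjusted p = 0.00912), with 1, 5 and 5 without WT FFC replicate 2, 3 or 4, and 5, 3 and 6 without WT chow replicate 2, 3 or 4. Of 266 solute carriers 35 rose and 24 fell, 13.2% and 9.02%, near the 8.76% higher and 8.03% lower of all tested genes. The bile acid importer Slc10a1 (-1.51, adjusted p = 2.53e-04) and the organic anion transporter Slc22a7 (-2.42, adjusted p = 2.62e-04) fell. The number of solute carriers higher was 17, 22 and 19 without WT FFC replicate 2, 3 or 4, and 26, 21 and 21 without WT chow replicate 2, 3 or 4, and those lower were 16, 20 and 17 without WT FFC replicate 2, 3 or 4, and 22, 19 and 21 without WT chow replicate 2, 3 or 4. Hsp90aa1 was not called when WT FFC replicate 2 was left out (adjusted p = 0.0800).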
